A study of Mus musculus with 30 samples.

Results

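Type 2 cytokines and their receptors were followed through 10 mouse genes taken by symbol: the cytokine genes Il4, Il5, Il13 and Il33, the receptor genes Il1rl1, Il4ra, Il2rg, Il13ra1 and Il13ra2, and Gata3, which encodes a transcription factor. All 10 had a row among the 39676 genes counted. Bulk RNA-seq had been run on 30 whole tumors, 10 each of B16-GFP, B16-IFNA4 and B16-IFNA9, harvested on day 8 after engraftment. B16 is a mouse melanoma cell line that grows in C57BL/6 mice. Each tumor type carried one retroviral vector from which an LTR promoter drives GFP alone, IFNα4 with GFP or IFNα9 with GFP, and all 3 lines also carried herpes simplex virus glycoprotein B and firefly luciferase. The mice were female C57BL/6 mice injected subcutaneously, typically young adults by the study's methods. Each line is thus 1 transduced cell line, so its difference from another line cannot be told apart from differences between the lines other than the interferon. The comparisons address how 2 interferon subtypes that act on the same receptor change the tumor as a tissue.

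Type 2 immunity is the response that worms, allergens and tissue damage elicit. IL-4 and IL-13 act through a shared receptor chain, IL-4Rα, which pairs with the common γ chain (Il2rg) to bind IL-4 alone, or with IL-13Rα1 to bind both cytokines, and the signal runs through STAT6. IL-13Rα2 binds IL-13 and is known mainly as a decoy. IL-33 is an alarmin stored in the nuclei of stromal and epithelial cells. It signals through ST2, the product of Il1rl1, on group 2 innate lymphoid cells (ILC2), TH2 cells, regulatory T cells, mast cells and some myeloid cells, and a soluble form of ST2 binds IL-33 without signaling. IL-5 acts on eosinophils, and GATA3 is the factor that TH2 cells and ILC2 need, although skin epithelium makes it too.

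The transgenes matched the labels. Ifna4 had between 81 and 188 counts in each B16-IFNA4 tumor and 0 in each of the other tumors, and Ifna9 had between 55 and 148 counts in each B16-IFNA9 tumor and 0 in each of the others. Each tumor had between 14598517 and 19788383 counts (median 16712970.5). Melanocyte genes were present in all 3 types, with Tyrp1 at a mean of 9328 CPM in B16-GFP, 2374 CPM in B16-IFNA4 and 4153 CPM in B16-IFNA9 tumors. B16-GFP tumor 7 stood apart: it was the lowest of its type for 7 of the 10 members, and its summed leukocyte markers were 140 CPM against 254 to 506 CPM in the other B16-GFP tumors. Counts of calls without it are given below. Levels are counts scaled to a common library size after TMM (CPM), given as mean ± SD with n = 10 tumors a type. Whole tumors were sequenced, so more cells of a type and more RNA per cell cannot be told apart in any value.

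Positions are those of GENCODE M21 on GRCm38. Il4 (ENSMUSG00000000869.12, chr11:53602982-53618669, minus strand), Il13 (ENSMUSG00000020383.1, chr11:53631324-53634702, minus) and Il5 (ENSMUSG00000036117.2, chr11:53720794-53725106, plus) form the TH2 cytokine cluster, with Rad50 between Il13 and Il5. Il33 (ENSMUSG00000024810.16) is at chr19:29925114-29960718 on the plus strand. Il1rl1 (ENSMUSG00000026069.15) is at chr1:40429570-40465415 on the plus strand, beside other genes of the IL-1 receptor family. Il4ra (ENSMUSG00000030748.9, chr7:125552120-125579474, plus) and Gata3 (ENSMUSG00000015619.10, chr2:9857078-9890034, minus) are on chromosomes that hold no other member. Il2rg (ENSMUSG00000031304.18, chrX:101264378-101268255, minus), Il13ra1 (ENSMUSG00000017057.9, chrX:36112110-36171259, plus) and Il13ra2 (ENSMUSG00000031289.10, chrX:147383476-147429192, minus) are apart from each other on the X chromosome. All 10 are protein-coding. Of the windows of 50 bases in its transcripts, Il2rg shares 27.5% with the gene model Gm20489 on the same strand, so its counts are uncertain to that extent. On the opposite strand Il5 shares 21.6% with Gm12214, which had 0 counts in every tumor, while Il4ra shares 8.44% with Gm44876 and Gata3 shares 1.49% with Gm13256. Gata3 also shares 0.731% with 9230102O04Rik on its own strand. The counts cover each gene as a whole, so the membrane and soluble forms of ST2 were not separated.

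RefSeq gave 13 start sites for the 10 members. The 250 bases before the start are printed for the start sites of Il1rl1, Il2rg and Il13ra1, which were higher in both interferon tumor types, and for 1 start site of Il4, which was not. The 4 motifs searched, on both strands, were TTCNNNNGAA (a spacing that STAT6 prefers), TTCNNNGAA (the GAS spacing of other STAT factors), GAAANNGAAA (the core of the interferon-stimulated response element, ISRE) and AGATAA (bound by GATA factors). The window of Gata3 lies wholly in annotated exons and is not printed. Matches are in capitals, 5′ to 3′ on the strand of the gene (GRCm38.p6).
Il1rl1, chr1:40429320-40429569, plus strand: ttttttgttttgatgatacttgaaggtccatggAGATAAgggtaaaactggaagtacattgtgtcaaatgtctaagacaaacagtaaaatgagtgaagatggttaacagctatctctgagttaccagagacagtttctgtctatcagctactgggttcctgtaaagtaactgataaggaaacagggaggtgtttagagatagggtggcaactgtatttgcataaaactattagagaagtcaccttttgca
Il1rl1, chr1:40439379-40439628, plus strand: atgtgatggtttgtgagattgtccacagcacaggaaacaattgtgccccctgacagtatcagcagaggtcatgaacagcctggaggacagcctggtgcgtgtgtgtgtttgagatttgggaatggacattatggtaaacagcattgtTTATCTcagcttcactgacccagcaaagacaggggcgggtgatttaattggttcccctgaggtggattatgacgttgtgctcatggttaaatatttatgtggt
Il2rg, chrX:101268256-101268505, minus strand: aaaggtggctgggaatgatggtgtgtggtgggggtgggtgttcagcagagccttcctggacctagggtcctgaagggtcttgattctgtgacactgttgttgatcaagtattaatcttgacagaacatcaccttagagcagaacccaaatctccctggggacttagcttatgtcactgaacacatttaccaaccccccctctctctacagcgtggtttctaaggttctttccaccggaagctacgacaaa
Il13ra1, chrX:36111858-36112107, plus strand: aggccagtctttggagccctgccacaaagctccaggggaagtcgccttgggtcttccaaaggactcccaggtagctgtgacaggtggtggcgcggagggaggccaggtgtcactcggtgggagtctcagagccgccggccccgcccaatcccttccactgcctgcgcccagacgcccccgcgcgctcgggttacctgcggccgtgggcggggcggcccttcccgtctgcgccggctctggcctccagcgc
Il4, chr11:53618666-53618915, minus strand: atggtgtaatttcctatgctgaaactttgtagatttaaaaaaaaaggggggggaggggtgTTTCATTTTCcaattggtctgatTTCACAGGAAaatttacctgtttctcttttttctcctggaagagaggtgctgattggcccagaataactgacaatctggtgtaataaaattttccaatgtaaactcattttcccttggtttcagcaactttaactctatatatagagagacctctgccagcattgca

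The Il1rl1 windows each held 1 AGATAA match, and the Il2rg and Il13ra1 windows held none of the 4 motifs. The printed Il4 window held 1 ISRE core and 1 STAT6-type match, while the other Il4 window, which is not printed, held none of the 4 motifs. Over all 13 member windows, 4 held AGATAA, 2 held TTCNNNNGAA (Il4 and Il33), 1 held GAAANNGAAA and 0 held TTCNNNGAA. Of 32851 RefSeq windows of the same length, 9.99% held AGATAA, 5.85% TTCNNNNGAA, 7.02% TTCNNNGAA and 2.98% GAAANNGAAA. These are letter matches in a short window and not measured binding.

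Of the 10 members, 8 reached a mean of 10 counts per tumor and entered the fit, while Il5 and Il13 did not. In B16-IFNA4 against B16-GFP tumors, 4 of the 8 were higher (Il1rl1, Il2rg, Gata3 and Il13ra1) and 0 were lower, by edgeR's quasi-likelihood test at an adjusted p (Benjamini-Hochberg) under 0.05. The same test called 65.4% of the 15926 genes tested, 31.3% as higher and 34.1% as lower. In B16-IFNA9 against B16-GFP tumors the 4 genes called higher were again Il1rl1, Il2rg, Gata3 and Il13ra1, with 0 lower, beside 55.7% of all genes called, 26.9% as higher and 28.9% as lower. Library totals in place of TMM gave 5051 genes higher and 3610 lower there, against 4281 and 4595. Between B16-IFNA9 and B16-IFNA4 tumors only Il1rl1 of the 8 was called, as lower in B16-IFNA9, beside 17.8% of all genes called and 7.25% called lower. Shares of members near those of all genes say nothing particular of these genes. The first 2 comparisons share the B16-GFP tumors, so a low or high control gene moves both. The median log2 fold change of the 8 members was 0.40, 0.35 and -0.22 in the 3 comparisons, against 0.0092, -0.0031 and -0.0055 over all genes tested. Il4, Il33, Il4ra and Il13ra2 were called in none of the 3 comparisons. Without B16-GFP tumor 7 the counts of members called were 4, 3 and 1 in the 3 comparisons, with Il1rl1 lost in B16-IFNA9 against B16-GFP.

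**Figure D1:**
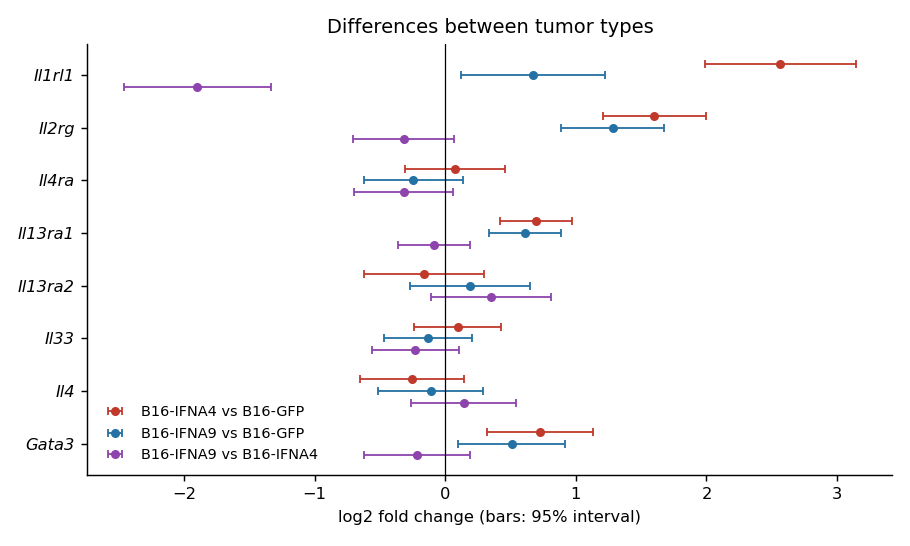
Log2 fold change of the 8 members that entered the fit in the 3 comparisons, with 95% intervals (horizontal axis). Il1rl1 is farthest to the right in red (2.57, B16-IFNA4 against B16-GFP) and is the one gene whose interval for B16-IFNA9 against B16-IFNA4, in purple, lies wholly below 0.

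Of the members tested, Il1rl1 changed most in B16-IFNA4 against B16-GFP and between the interferon types, and Il2rg in B16-IFNA9 against B16-GFP. It stood at 27.7 ± 9.62 CPM in B16-GFP, 164 ± 67.2 CPM in B16-IFNA4 and 44.1 ± 18.3 CPM in B16-IFNA9 tumors. In B16-GFP tumors the lowest, median and highest values were 8.38, 26.9 and 39.8 CPM. In B16-IFNA4 tumors they were 38.4, 157 and 266 CPM, and 9 of the 10 tumors lay above all B16-GFP tumors. In B16-IFNA9 tumors the values were 10.4, 44.3 and 75.8 CPM, with 6 of 10 above all B16-GFP tumors and 4 of 10 below all B16-IFNA4 tumors. The fitted log2 fold change was 2.57 ± 0.29 (SE, adjusted p = 1.2e-08, edgeR) for B16-IFNA4 against B16-GFP, and 2.83% of the genes tested changed by more. It was 0.67 ± 0.28 (adjusted p = 0.0437, edgeR) for B16-IFNA9 against B16-GFP. Between the interferon types it fell by 1.90 ± 0.29 on the log2 scale (adjusted p = 2.23e-05, edgeR), a difference that 0.892% of genes exceeded. The call of B16-IFNA9 over B16-GFP was lost with no filter on low counts (adjusted p = 0.0573, edgeR) and with a block for replicate number (adjusted p = 0.0688, edgeR). It was also lost, at an adjusted p of 0.0528 to 0.096, without any one of B16-GFP tumors 2, 3, 5, 6, 7 and 8 and B16-IFNA9 tumors 2, 3, 4, 7, 8 and 10.

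The tumor lowest in Il1rl1 was in each type also the lowest in summed leukocyte markers (Ptprc, Cd53, Laptm5, Coro1a and Cytip). In each type the same tumor was the lowest in summed NK cell markers too, so the match is not particular to the leukocyte list. Over all tumors with type means taken off, Il1rl1 had a Spearman's rho of only 0.348 with the mean of the leukocyte markers (n = 30). Without B16-GFP tumor 7 it was 0.302. B16-IFNA4 tumor 8 had 38.4 CPM of Il1rl1 against at least 110 CPM in the other 9, and 806 CPM of leukocyte markers against 964 to 1626 CPM. B16-IFNA9 tumor 5 had 10.4 CPM of Il1rl1 against at least 31.9 CPM, and 553 CPM of leukocyte markers against 716 to 1081 CPM. Relative to Ptprc, the gene of the pan-leukocyte antigen CD45, Il1rl1 had a log2 ratio of -1.51 ± 0.44 in B16-GFP, -1.73 ± 0.59 in B16-IFNA4 and -3.09 ± 0.48 in B16-IFNA9 tumors, so the first 2 types differed by less than their SD. That holds for Ptprc, which rose most of the 5 leukocyte markers (2.65 in B16-IFNA4). Il1rl1 rose more there (2.57) than the other 4, Cd53 (1.62), Coro1a (1.40), Cytip (1.02) and Laptm5 (0.89). In B16-IFNA9 the order was the other way, with Il1rl1 at 0.67 and the 5 markers at 2.14, 1.01, 0.89, 0.75 and 0.75. These ratios carry no test, and whether the number of leukocytes has a part in the levels of Il1rl1 was not tested.

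Il2rg, whose chain serves the receptors of IL-2, IL-4, IL-7, IL-9, IL-15 and IL-21, rose in both interferon types. It stood at 28.1 ± 12.7 CPM in B16-GFP (9.99 to 53.7, median 26.7), 85.4 ± 15.7 CPM in B16-IFNA4 (58.2 to 113, median 87.0) and 68.6 ± 16.5 CPM in B16-IFNA9 tumors (39.4 to 99.0, median 68.8). All 10 B16-IFNA4 tumors lay above all B16-GFP tumors, the one member for which 2 types did not overlap. Of all genes tested, 18.5% did not overlap in that comparison and 8.50% did so as higher. In B16-IFNA9, 9 of 10 tumors lay above all B16-GFP tumors. The same shares were 7.79% and 4.44% for B16-IFNA9 against B16-GFP and 2.83% and 2.08% for B16-IFNA9 against B16-IFNA4, and in both of these comparisons every tested member overlapped. Against B16-GFP, Il2rg was higher by 1.60 ± 0.20 on the log2 scale (SE, adjusted p = 6.99e-08, edgeR) in B16-IFNA4 and by 1.28 ± 0.20 (adjusted p = 4.86e-06, edgeR) in B16-IFNA9 tumors. Between the interferon types the log2 difference was -0.32 (95% interval -0.70 to 0.07, adjusted p = 0.284, edgeR), which does not show that they are alike. Relative to Ptprc, Il2rg was lower in both interferon types (-2.54 ± 0.22 and -2.34 ± 0.24 on the log2 scale) than in B16-GFP tumors (-1.52 ± 0.51). The direction depends on the marker taken: Il2rg rose by more than Coro1a (1.40 and 0.89), Cytip (1.02 and 0.75) and Laptm5 (0.89 and 0.75) in both types, and about as much as Cd53 in B16-IFNA4 (1.62).

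Il4ra, the chain that IL-4 and IL-13 share, did not follow Il2rg in the differences between types. Among B16-GFP tumors it did (Spearman's rho 0.770, n = 10), with a rho of 0.321 in B16-IFNA4 and 0.0424 in B16-IFNA9 tumors. It stood at 114 ± 45.2 CPM in B16-GFP (35.1 to 204, median 109), 120 ± 24.0 CPM in B16-IFNA4 (88.7 to 150, median 116) and 96.7 ± 26.8 CPM in B16-IFNA9 tumors (66.7 to 145, median 94.4). The 3 ranges overlapped, and the spread was widest in B16-GFP. The log2 fold change was 0.07 (95% interval -0.31 to 0.46, adjusted p = 0.745, edgeR) for B16-IFNA4 and -0.24 (-0.62 to 0.14, adjusted p = 0.291, edgeR) for B16-IFNA9 against B16-GFP. Per length of transcript, the log2 ratio of Il4ra to Il2rg within a tumor went from 0.71 in B16-GFP to -0.84 in both B16-IFNA4 and B16-IFNA9 tumors. In B16-GFP tumors Il4ra was above Il2rg per kilobase in all 10 tumors.

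Il13ra1, the partner of IL-4Rα in the receptor for both cytokines, rose modestly in both types. It stood at 114 ± 32.2 CPM in B16-GFP (55.9 to 159, median 119), 184 ± 27.4 CPM in B16-IFNA4 (149 to 237, median 179) and 174 ± 30.8 CPM in B16-IFNA9 tumors (105 to 202, median 187). In each interferon type, 8 of 10 tumors lay above all B16-GFP tumors. Il13ra1 was higher by 0.70 ± 0.14 on the log2 scale (adjusted p = 8.63e-05, edgeR) in B16-IFNA4 and 0.61 ± 0.14 (adjusted p = 5.43e-04, edgeR) in B16-IFNA9 against B16-GFP. Between the interferon types the difference was -0.09 (95% interval -0.36 to 0.19). Il13ra2, the decoy, was near the bottom of the range that could be tested, with 9 to 108 counts in a tumor. Its level was 2.81 ± 1.25 CPM in B16-GFP, 2.52 ± 0.53 CPM in B16-IFNA4 and 3.21 ± 1.35 CPM in B16-IFNA9 tumors, and its log2 fold changes of -0.16, 0.19 and 0.35 had intervals that include 0. The log2 ratio of Il13ra1 to Il13ra2 per length was 4.66, 5.44 and 5.06 in B16-GFP, B16-IFNA4 and B16-IFNA9 tumors.

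**Figure D2:**
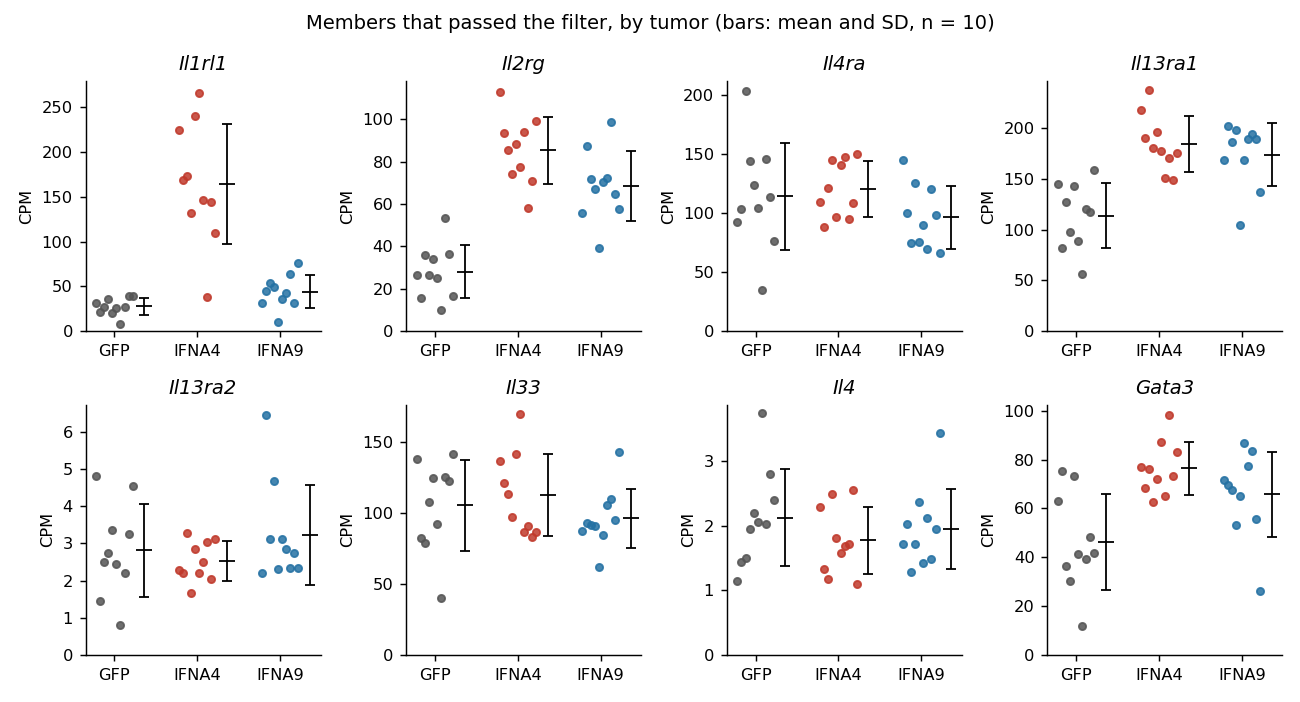
CPM of the 8 members in each tumor (dots, vertical axis from 0) by tumor type, with the mean and SD of 10 tumors beside them. Il2rg is the panel in which the B16-IFNA4 dots (58.2 to 113 CPM) lie wholly above the B16-GFP dots (9.99 to 53.7 CPM), while Il4ra, Il33, Il4 and Il13ra2 overlap throughout.

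Il33, the ligand of ST2, was among the members with the highest levels and passed the test in none of the comparisons. It stood at 105 ± 31.8 CPM in B16-GFP (40.0 to 141, median 115), 113 ± 29.2 CPM in B16-IFNA4 (83.3 to 170, median 105) and 96.2 ± 20.9 CPM in B16-IFNA9 tumors (61.6 to 143, median 92.4). The log2 fold change was 0.10 (95% interval -0.24 to 0.43, adjusted p = 0.627, edgeR), -0.13 (-0.46 to 0.20, adjusted p = 0.523) and -0.23 (-0.56 to 0.11, adjusted p = 0.39) in the 3 comparisons. The log2 ratio of Il1rl1 to Il33 within a tumor was -1.95 ± 0.34 in B16-GFP, 0.43 ± 0.61 in B16-IFNA4 and -1.25 ± 0.54 in B16-IFNA9 tumors.

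Within each type, tumors with more Il33 had more Il1rl1. Spearman's rho between their log2 CPM was 0.588 in B16-GFP, 0.830 in B16-IFNA4 and 0.709 in B16-IFNA9 tumors (n = 10 each), and Pearson's r was 0.856, 0.687 and 0.879. Leaving out in each type the 2 tumors farthest from the median of Il33 gave r of 0.494, 0.535 and 0.558 (n = 8). Of the 28 pairs of tested members, this pair had the highest rho in the type where it was weakest, so it is given as a description without a p, and the values share each tumor's library and its mix of cells. Over the 30 tumors with type means taken off, rho was 0.752, and 0.729 without B16-GFP tumor 7.

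**Figure D3:**
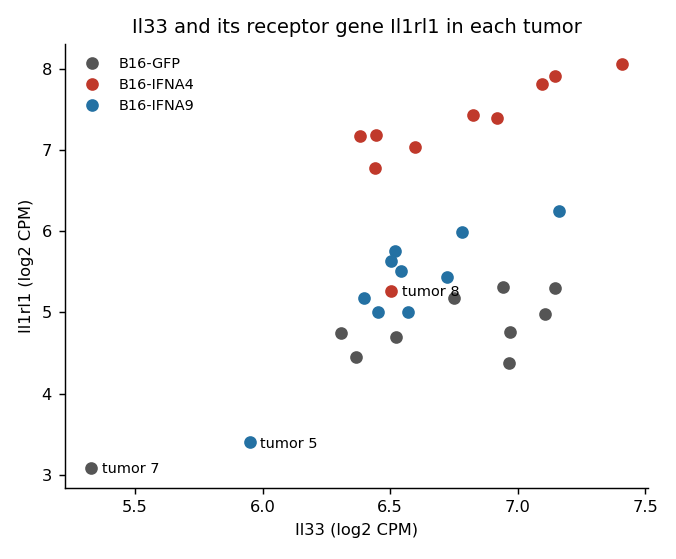
Log2 CPM of Il1rl1 (vertical) against Il33 (horizontal) in each of the 30 tumors, colored by tumor type. The B16-IFNA4 tumors lie above the other types at like Il33, apart from tumor 8, and B16-GFP tumor 7 and B16-IFNA9 tumor 5 are lowest on both axes.

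Unlike Il33, the cytokine genes Il4, Il5 and Il13 were scarce. Il4 had 18 to 56 counts in every tumor. Its level was 2.13 ± 0.75 CPM in B16-GFP (1.15 to 3.75, median 2.05), 1.77 ± 0.52 CPM in B16-IFNA4 (1.10 to 2.56, median 1.71) and 1.96 ± 0.62 CPM in B16-IFNA9 tumors (1.29 to 3.44, median 1.84). The ranges overlapped, and the tumor highest in B16-GFP was tumor 7, which was lowest for most other members. Its log2 fold change was -0.25 (95% interval -0.65 to 0.15, adjusted p = 0.276, edgeR) in B16-IFNA4 and -0.11 (-0.51 to 0.29, adjusted p = 0.655, edgeR) in B16-IFNA9 against B16-GFP, and 0.14 (-0.26 to 0.54, adjusted p = 0.687, edgeR) between them. While Ptprc was 2.65 and 2.14 higher on the log2 scale in B16-IFNA4 and B16-IFNA9 than in B16-GFP tumors, Il4 was not. Its log2 ratio to Ptprc was -5.10 ± 1.07 in B16-GFP, -8.07 ± 0.64 in B16-IFNA4 and -7.40 ± 0.75 in B16-IFNA9 tumors. The differences in this ratio come mainly from Ptprc and are not a level of Il4 per leukocyte. With type means taken off, Il4 had a rho of -0.334 with the mean of the leukocyte markers and 0.413 with that of the melanocyte markers (n = 30).

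Il5 and Il13 were near the limit of counting. Il5 was counted in 2 of 10 B16-GFP, 8 of 10 B16-IFNA4 and 9 of 10 B16-IFNA9 tumors, with 7, 27 and 44 counts in all. Its highest single tumor had 4, 8 and 12 counts, and its mean was 0.0521, 0.148 and 0.252 CPM. By a two-sided permutation test with 100000 resamples, not adjusted, the difference in mean CPM gave p = 0.113 for B16-IFNA4 and p = 0.00646 for B16-IFNA9 against B16-GFP, and p = 0.182 between them. Il13 was counted in 3, 7 and 10 of 10 tumors, with 12, 18 and 46 counts in all and means of 0.0744, 0.106 and 0.266 CPM. Of the 12 counts in B16-GFP, 8 came from tumor 3. The same permutation test gave p = 0.632 for B16-IFNA4 and p = 0.0351 for B16-IFNA9 against B16-GFP, and p = 0.0459 between B16-IFNA9 and B16-IFNA4. When all genes with a count were put through edgeR, Il5 in B16-IFNA9 against B16-GFP kept an adjusted p of 0.0138 and Il13 had an adjusted p of 0.061. Without B16-GFP tumor 7, which held 4 of the 7 counts of that type, Il5 in B16-IFNA4 against B16-GFP had a permutation p of 0.00866. The p of Il13 was above 0.05 in 11 of the 20 tests of B16-IFNA9 against B16-GFP that left out 1 tumor (up to 0.0725, without B16-IFNA9 tumor 2) and in 13 of the 20 tests of B16-IFNA9 against B16-IFNA4 (up to 0.0931, without the same tumor).

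**Figure D4:**
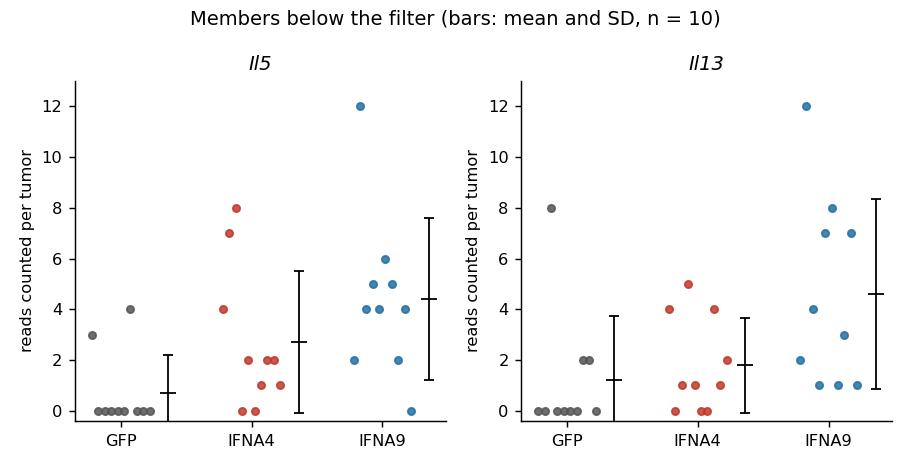
Reads counted per tumor for Il5 and Il13 (vertical axis, dots), with the mean and SD of 10 tumors of each type (bars reaching below 0 are clipped at the axis). Il5 was counted in 2 B16-GFP tumors and in 9 B16-IFNA9 tumors, and no tumor exceeded 12 reads of either gene.

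Gata3 rose in both interferon types. It stood at 46.1 ± 19.7 CPM in B16-GFP (11.8 to 75.3, median 41.5), 76.4 ± 10.7 CPM in B16-IFNA4 (62.8 to 98.1, median 74.8) and 65.7 ± 17.6 CPM in B16-IFNA9 tumors (26.1 to 86.9, median 68.6). In B16-IFNA4 5 of 10, and in B16-IFNA9 3 of 10, lay above all B16-GFP tumors. On the log2 scale Gata3 was higher than in B16-GFP tumors by 0.73 ± 0.21 (SE, adjusted p = 0.00326, edgeR) in B16-IFNA4 and by 0.51 ± 0.21 (adjusted p = 0.0384, edgeR) in B16-IFNA9 tumors. The latter call was lost when only the 2 types compared were fitted (adjusted p = 0.0819, edgeR). It was also lost, at an adjusted p of 0.0509 to 0.0709, without any one of B16-GFP tumors 3, 4, 6, 8 and 10 and B16-IFNA9 tumors 1, 2, 3, 6, 7 and 8. Tbx21, whose product T-bet drives the opposing TH1 program, rose by 4.35 and 3.43 on the log2 scale. Its mean was only 0.427 CPM in B16-GFP (7.2 counts a tumor), against 8.95 CPM in B16-IFNA4 and 4.73 CPM in B16-IFNA9, so the ratio in B16-GFP rests on few counts of Tbx21. The log2 ratio of Gata3 to Tbx21 was thus 6.45 ± 0.92 in B16-GFP, 3.14 ± 0.59 in B16-IFNA4 and 3.79 ± 0.44 in B16-IFNA9 tumors. Within types Gata3 followed the keratinocyte markers (rho 0.787 with the mean of the list, n = 30). B16-IFNA9 tumor 10 was lowest in Gata3 (26.1 CPM) and in summed keratinocyte markers (2026 CPM, median of the type 6549 CPM), and B16-GFP tumor 7 was lowest in both as well. Each of these tumors was also the lowest of its type in other sums, among them those of T cell, macrophage and adipocyte markers. Of 7 keratinocyte markers tested, 4 were higher in B16-IFNA4 and 2 in B16-IFNA9 than in B16-GFP tumors (Dsp by 0.94 and 0.70, Trp63 by 0.71 and 0.62, log2), and Krt10 was 0.91 higher in B16-IFNA4. Of all genes tested, 31.3% and 26.9% were higher in these comparisons. Skin in the samples and its part in the level of Gata3 were not tested.

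**Figure D5:**
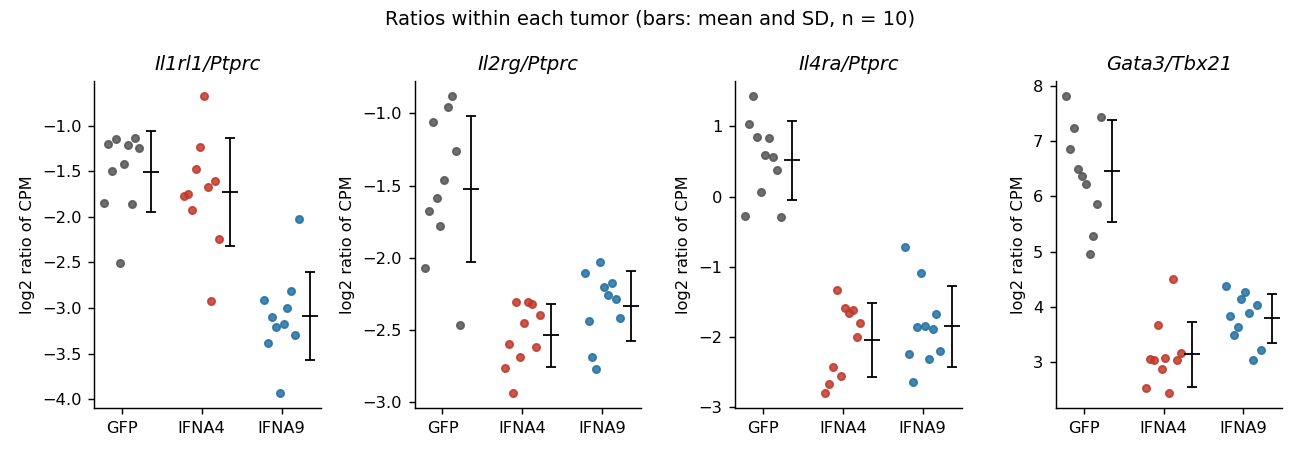
Log2 ratio of CPM within each tumor (dots, vertical axis) for Il1rl1, Il2rg and Il4ra over Ptprc and for Gata3 over Tbx21, with the mean and SD of 10 tumors. Gata3 over Tbx21 is higher in B16-GFP (mean 6.45) than in both interferon types (3.14 and 3.79), and Il1rl1 over Ptprc is lowest in B16-IFNA9 (mean -3.09). Tbx21 had a mean of only 7.2 counts a tumor in B16-GFP, so its ratio there rests on few counts.

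Per kilobase of transcript the order of the members changed with tumor type. In B16-GFP tumors Il33 (36.5 CPM per kb) and Il13ra1 (30.6) led, followed by Il4ra (19.1), Il2rg (11.8), Gata3 (11.6), Il1rl1 (4.02), Il4 (1.74) and Il13ra2 (1.23). In B16-IFNA4 tumors Il13ra1 (49.7 CPM per kb) led Il33 (39.0) and Il2rg (35.8), and Il1rl1 (23.8) stood above Il4ra (20.1) and Gata3 (19.2). In B16-IFNA9 tumors Il13ra1 (46.8 CPM per kb), Il33 (33.3) and Il2rg (28.7) led, and Il1rl1 (6.40) was again under Gata3 (16.5) and Il4ra (16.1). Most neighbors in these orders overlapped between tumors. In B16-GFP, Il2rg and Gata3 differed by 0.191 CPM per kb, far less than their SD, and in B16-IFNA9, Gata3 and Il4ra differed by 0.412 CPM per kb. In B16-IFNA4, Il1rl1 was above Il4ra in only 6 of 10 tumors, and Il4ra above Gata3 in 5 of 10. A gap without overlap lay in B16-IFNA4 between Gata3 and Il4 and between Il13ra2 and Il5, and in B16-IFNA9 between Il4ra and Il1rl1 and between Il13ra2 and Il13.

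In the stretch of chromosome 11 from Kif3a to Irf1, Irf1, an interferon-induced transcription factor, rose by 1.67 in B16-IFNA4 and 2.52 in B16-IFNA9 against B16-GFP (log2). Kif3a, a kinesin gene next to Il4, was lower in B16-IFNA4 (log2 fold change -0.66, adjusted p = 2.07e-06, edgeR) and was at -0.03 in B16-IFNA9. Rad50, a DNA repair gene that holds the control region of the cluster, was at 0.02 in B16-IFNA4 and 0.54 higher in B16-IFNA9 (adjusted p = 4.94e-05, edgeR). Of the 7 neighbors of the cluster that could be tested, 3 were higher and 2 lower in B16-IFNA4, and 4 were higher and 0 lower in B16-IFNA9. Of all genes tested, 31.3% were higher and 34.1% lower in the first comparison and 26.9% and 28.9% in the second, so the counts in B16-IFNA4 are near those of all genes. Higher in both, besides Irf1, were Csf2 (1.29 and 2.05) and Slc22a4 (1.12 and 0.90). Csf2 had a mean of 3.8 counts a tumor in B16-GFP, 10.1 in B16-IFNA4 and 16.7 in B16-IFNA9, so it entered the test only through the types where it was high. Beside Il1rl1, 4 of 6 tested neighbors were higher in B16-IFNA4 and 5 of 6 in B16-IFNA9, against the same 31.3% and 26.9% of all genes. Il18rap rose by 3.46 and 2.69 and Il18r1 by 2.54 and 1.86, which encode the chains of the IL-18 receptor, while Il1r1 was at 0.07 and -0.20. Slc9a4 was 1.18 higher in B16-IFNA9 (adjusted p = 7.41e-04, edgeR) and at 0.54 in B16-IFNA4. Between the interferon types Il18rap was 0.76 lower in B16-IFNA9 (adjusted p = 0.0166, edgeR), and Il1rl1 1.90 lower. The log2 ratio of Il1rl1 to Il18r1 was 3.16 ± 0.70, 2.97 ± 0.60 and 1.79 ± 0.61 in B16-GFP, B16-IFNA4 and B16-IFNA9 tumors.

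Other genes of the pathway were taken from lists. Their counts stand beside those of all genes tested, of which 31.3% were higher and 34.1% lower in B16-IFNA4 and 26.9% and 28.9% in B16-IFNA9 against B16-GFP, and 10.5% and 7.25% in B16-IFNA9 against B16-IFNA4. A list whose shares are near these is not set apart by them. Of the 156 listed genes tested, 9 had a mean under 10 counts in B16-GFP and passed the filter through the interferon types (Csf2, Il5ra, Gfi1, Tbx21, Fcer2a, Calca, Cd8b1, Klra4 and Siglecf). Ccl17 and Ear6 were likewise under that mean in B16-IFNA4. Of the 9, 8 were called higher in B16-IFNA4 and 9 in B16-IFNA9, which the filter favors. Of the other type 2 ligands, 4 could be tested, and Csf2 (GM-CSF) and Il7 were higher in both interferon types (Il7 by 1.39 and 1.16), with 0 lower (median log2 fold change of the 4 genes 0.66 and 0.53). Areg, an ILC2 product, was at 0.02 and -0.10. Il31, Il3 and Il21 were below the filter. Of 9 other receptor genes, 8 were higher in B16-IFNA4 and 6 in B16-IFNA9, with 0 lower (median 1.08 and 0.84). Among them Il5ra, the IL-5 receptor chain, rose by 2.24 and 1.67, but its mean was only 0.247, 1.22 and 0.826 CPM in the 3 types. Il2ra rose by 1.88 and 2.11 and Il15ra by 1.49 and 1.10. Il1rap, the second chain of the IL-33 receptor, was at 0.16 and 0.09 (adjusted p = 0.171 and 0.464, edgeR). Between the interferon types, Il17ra (-0.50) and Osmr (-0.38) were lower in B16-IFNA9.

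Of 13 genes of IL-4 and IL-13 signaling, 9 were higher and 0 lower in B16-IFNA4, and 6 were higher and 1 lower in B16-IFNA9, where the 7 called were close to the 55.7% of all genes called. The median log2 fold change was 0.47 and 0.34. The 3 with the largest rises were Parp14 (2.66 and 2.39), a STAT6 cofactor that interferon also induces, Ptpn6 (1.34 and 0.94), the leukocyte phosphatase SHP-1, and Tyk2 (0.64 and 0.65). Stat6, the main factor of the pathway, was at 224, 227 and 215 CPM in the 3 types, with log2 fold changes of 0.02, -0.06 and -0.07. Socs3 (-0.43) was lower in B16-IFNA9 than in B16-GFP. Socs3 (-0.56), Irs2 (-0.56) and Ptpn6 (-0.40) were lower in B16-IFNA9 than in B16-IFNA4. Of 12 transcription factors of TH2 cells and ILC2 and their counterparts, 9 were higher and Ets1 lower in B16-IFNA4 (-0.58), and 8 were higher and Ets1 lower (-0.33) in B16-IFNA9 (median 0.76 and 0.52). The largest rises were those of Tbx21, Gfi1 (2.51 and 2.43) and Bcl11b (1.41 and 1.50). Rora rose by 0.66 and 0.51.

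Of 16 tested genes known to respond to IL-4, 9 were higher and 5 lower in B16-IFNA4, 9 were higher and 1 lower in B16-IFNA9, and 6 were higher and 3 lower in B16-IFNA9 against B16-IFNA4. The 5 lower in B16-IFNA4 are a share near the 34.1% of all genes called lower there. The median log2 fold change was 0.72, 0.77 and 0.24. Among the genes higher in both interferon types were Ccl11, which encodes eotaxin (2.84 and 1.97), Alox15, a lipoxygenase gene (2.36 and 1.63), Ccl7, a chemokine gene (2.27 and 1.34), and Pdcd1lg2, which encodes the PD-1 ligand PD-L2 (1.54 and 2.57). Ccl17, a TH2 cell attractant, was lower in B16-IFNA4 (-0.85) and higher in B16-IFNA9 (1.60) than in B16-GFP, a difference of 2.44 between them (adjusted p = 3.39e-06, edgeR). It is a low gene, at a mean of 14.9, 8.7 and 47.2 counts in B16-GFP, B16-IFNA4 and B16-IFNA9. Ccl24, an eosinophil attractant, was at -2.19 in B16-IFNA4 and 1.43 higher in B16-IFNA9 than in B16-IFNA4, and Mrc1 at -0.78 and 0.73. Chil3 was 2.27 higher in B16-IFNA4 than in B16-GFP and 1.93 lower in B16-IFNA9 than in B16-IFNA4, the direction that Il1rl1 took.

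Most markers of T cells, NK cells and leukocytes as a whole were higher in both interferon types. Leukocyte markers summed to 140 to 506 CPM in B16-GFP, 806 to 1626 CPM in B16-IFNA4 and 553 to 1081 CPM in B16-IFNA9 tumors, and 5 of 5 were higher in both (Ptprc by 2.65 and 2.14, Cd53 by 1.62 and 1.01, Coro1a by 1.40 and 0.89). Of 9 T cell markers, 9 were higher in B16-IFNA4 and 8 in B16-IFNA9, led by Cd28 (3.54 and 2.78), Cd8a (3.36 and 2.99) and Cd8b1 (3.33 and 3.04). All 6 NK cell markers were higher in both, led by Klra4 (5.24 and 3.99), Klra8 (4.85 and 3.94) and Ncr1 (4.66 and 4.14). Summed T cell markers ran from 7.76 to 64.6 CPM in B16-GFP, from 93.5 to 209 CPM in B16-IFNA4 and from 41.3 to 139 CPM in B16-IFNA9 tumors. Of 9 tested ILC2 markers, which include Il1rl1 and Gata3, 6 were higher and 1 lower in B16-IFNA4, and 7 were higher and 1 lower in B16-IFNA9. Their sums ran from 89.7 to 294 CPM, from 364 to 562 CPM and from 228 to 346 CPM in B16-GFP, B16-IFNA4 and B16-IFNA9 tumors. Rora (mean 114, 181 and 162 CPM), Il1rl1 and Gata3 make up most of these sums, so they say little of the other ILC2 markers. With type means taken off, Il1rl1 had a rho of -0.161 with the mean of the other ILC2 markers, and Gata3 had 0.530 (n = 30). Among the ILC2 markers the largest rises in B16-IFNA4 were those of Icos (2.60), Il1rl1 (2.57) and Klrg1 (2.31). In B16-IFNA9 Klrg1 (3.11) and Icos (2.50) led. T cells express Icos and Klrg1 too. Hs3st1 fell in both (-0.51 and -1.34).

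Markers of eosinophils and of mast cells and basophils went both ways. Of 6 eosinophil markers tested, 3 were higher and 2 lower in B16-IFNA4, 3 were higher and 0 lower in B16-IFNA9, and 3 were higher in B16-IFNA9 than in B16-IFNA4. Ccr3 (2.48 and 1.62), Siglecf (1.83 and 1.56) and Alox15 were higher in both. The ribonuclease genes Ear1 (-0.84) and Ear2 (-0.76) were lower in B16-IFNA4, and Ear1, Ear2 and Ear6 were higher in B16-IFNA9 than in B16-IFNA4 (1.06, 1.09 and 1.36). Ear6 had a mean of only 5.4 counts in B16-IFNA4, against 10.5 in B16-GFP and 14.2 in B16-IFNA9, and passed the filter through the latter types. Genes of the Ear and Klra families are close copies, so their single counts are uncertain. The granule protein genes Epx and Prg2 were below the filter, and Epx had 0 counts in every B16-IFNA9 tumor. The summed level overlapped between types, with medians of 28.2, 25.7 and 36.7 CPM in B16-GFP, B16-IFNA4 and B16-IFNA9 tumors (ranges 7.40 to 50.7, 19.7 to 40.5 and 27.3 to 57.0). Of 6 mast cell and basophil markers, 2 were higher and 0 lower in B16-IFNA4, and 1 was higher and 1 lower in B16-IFNA9, shares near or below those of all genes. Ms4a2, a chain of the IgE receptor, was higher in both (1.21 and 1.28), and Fcer1a, another chain of it, was at -0.55 in B16-IFNA4 and lower in B16-IFNA9 (-0.89, adjusted p = 0.0416, edgeR). Hdc was 1.34 higher in B16-IFNA4 than in B16-GFP and 1.45 lower in B16-IFNA9 than in B16-IFNA4, while the mast cell protease Cpa3 was at -0.40 and -0.34 against B16-GFP. Which of these cells held the transcripts of the members was not tested.

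Markers of fibroblasts, which can store IL-33, had overlapping sums in the 3 types, with medians of 7026 CPM in B16-GFP, 6513 CPM in B16-IFNA4 and 6889 CPM in B16-IFNA9 tumors. Of 6 fibroblast markers, 2 were higher in each interferon type, near the share of all genes: Pi16 (0.55 and 0.53) in both, Pdgfrb (0.41) in B16-IFNA4 and Pdgfra (0.54) in B16-IFNA9. Of 9 macrophage markers, 3 were higher and 2 lower in B16-IFNA4 and 3 higher in B16-IFNA9, shares near or below those of all genes. Msr1 (1.48 and 1.31) and Cx3cr1 (0.89 and 0.66) were among those higher, and Mrc1 (-0.78) and C1qc (-0.58) were the ones lower in B16-IFNA4. The median over the 9 was -0.28 and -0.05. Of 8 endothelial markers, 6 were lower and Kdr higher in B16-IFNA4, and 5 were lower in B16-IFNA9 (Emcn by -1.32 and -1.71, Tie1 by -0.97 and -1.58, Cdh5 by -0.84 and -1.51). Melanocyte markers were lower in both, 4 of 4, led by Slc45a2 (-2.37 and -1.66), Tyrp1 (-1.97 and -1.17) and Tyr (-1.24 and -0.97). Of 7 skeletal muscle markers, 4 were lower in B16-IFNA9 than in B16-GFP, including Acta1 (-1.19) and Actn3 (-1.08), and 6 were lower in B16-IFNA9 than in B16-IFNA4, including Myh4 (-1.09). Of 7 adipocyte markers 1 (Plin4, 1.00) was higher in B16-IFNA4.

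The genes with the most similar patterns to each of the 8 tested members were found by Spearman's rho of log2 CPM over the 30 tumors, which share libraries and cell mix, and again with type means taken off. For Il1rl1 they were Synj1 (0.922), Ccl2 (0.920) and Clec4e (0.919), and within types Steap2 (0.786), Pdpn (0.771) and Ccr3 (0.765). For Il2rg they were Gm15753 (0.981), Apobec3 (0.978) and Spn (0.976), and within types Myo1f (0.932), Hcls1 (0.928) and Lsp1 (0.921). Il13ra1 was most like Vwa5a (0.957), Ripk2 (0.934) and Gm5431 (0.932), and within types Sema3d (0.930), Tmem123 (0.897) and Bbox1 (0.890). Gata3 was most like Nhsl1 (0.885), Vsig10l (0.883) and Scnn1a (0.877), and within types Gm20219 (0.856), Tmprss13 (0.838) and Scnn1a (0.824). Il4ra was most like Gadd45g (0.790), Gas6 (0.783) and Col5a1 (0.770), and within types Thy1 (0.865), Gas6 (0.841) and Gadd45g (0.835). Il33 was most like Ptgs2 (0.796), Ugdh (0.765) and Sulf1 (0.749), and within types Ptgs2 (0.870), Sulf1 (0.859) and Ern1 (0.819). Il13ra2 was most like Fcgr2b (0.753), Rspo3 (0.597) and Pla2g7 (0.592), and within types Entpd1 (0.786), Zfp709 (0.781) and March1 (0.753). Il4, with the fewest counts of the 8, reached only 0.689 (Fez1), 0.648 (Gm3470) and 0.616 (9530068E07Rik), and within types 0.672 (Gdf11), 0.669 (Gm14403) and 0.666 (Fez1). With type means taken off, Il2rg had a rho of 0.912 with the mean of the leukocyte markers and 0.716 with Ptprc alone, and Il13ra1 had 0.675 and 0.817, so their order depends on the marker.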

How the data were processed

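RNA of 30 whole tumors (10 per type, labels from the sample titles) was sequenced from stranded mRNA libraries as single-end reads of 50 bases. The authors checked the reads with FastQC 0.11.3, aligned them with HISAT2 2.0.4 and counted them per gene, and deposited the values as counts, whole numbers without normalization. The genome is mm10 in the submitters' processing notes and mm11 in the study's methods. The strand setting of the counting and the handling of reads with several alignments are not given in the sources used here, so reads of genes that overlap or share sequence may be assigned to either.

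Symbols and coordinates come from GENCODE M21 (GRCm38), which held 39495 of 39676 identifiers, and all 10 members in the same version. Promoter windows come from RefSeq (GRCm38.p6). The 15926 genes that reached a mean of 10 counts were tested with edgeR 4.0.16 in R 4.3.3 (TMM, quasi-likelihood test, all 30 tumors in one fit, Benjamini-Hochberg over all genes tested, threshold 0.05). TMM factors lay between 0.768 and 1.10. The fit had a common biological coefficient of variation of 0.281. Log2 CPM took a prior count of 2. Members below the filter were compared by a two-sided permutation test of the mean CPM (scipy, 100000 resamples, unadjusted). Marker sums are sums of CPM, and levels per kb use the union of exons. The code was tested on simulated counts.

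The members, the gene lists and the tests were chosen with earlier results of these data known. Named were all members, the 3 most similar genes by rho over the tumors and within types, the 3 genes of each list with the largest called change in any comparison, the neighbors of the members and the reference genes of the ratios. Other listed genes, such as Stat6, Il1rap, Areg, Cpa3, Rora, Ear1, Alox15 as an IL-4-response gene, Il1r1 and Hs3st1, were named after their values were seen. Alternatives were DESeq2 1.42.0, its size factors, library totals, edgeR's filterByExpr, no filter, a replicate block, only the 2 types compared, and leaving out each tumor. Tumors are separate biological replicates by their titles, and no 2 columns were identical. Lists lack genes that were not found among the identifiers and are not analysed here. Counting intervals and zeros cover counting error only.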

Additional observations from a re-analysis of the deposited data

Results flagged for a closer look

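Within each type the highest and the lowest tumor were compared with the other 9 by Dixon's ratio, for 10 members and 3 types. This gave 7 values far from the rest among 30 groups of values. Chance flags about 1 in 20 groups of independent, normal values, which these are not: 3 of the 7 come from B16-GFP tumor 7, and many values of Il5 and Il13 are tied at 0 counts, where a few counts suffice.

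Il1rl1 had such a tumor in every type. B16-GFP tumor 7 was at 3.09 log2 CPM (94 counts) against 4.37 to 5.32 in the others, B16-IFNA4 tumor 8 at 5.27 (667 counts) against 6.78 to 8.06, and B16-IFNA9 tumor 5 at 3.40 (194 counts) against 5.00 to 6.25. Each was the lowest of its type in summed leukocyte markers and in summed NK cell markers as well. The part of cell content in these values was not tested.

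Gata3 was at 3.57 log2 CPM (132 counts) in B16-GFP tumor 7, against 4.93 to 6.24, and at 4.71 (425 counts) in B16-IFNA9 tumor 10, against 5.74 to 6.44. Both tumors were the lowest of their type in summed keratinocyte markers, and also in summed T cell, macrophage and adipocyte markers. Il33 was at 5.33 log2 CPM (449 counts) in B16-GFP tumor 7, against 6.31 to 7.14.

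Il13 was high in B16-GFP tumor 3, at -0.695 log2 CPM against -3.10 to -2.01. These are 8 counts.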

How the results depend on the processing

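The count of members called in B16-IFNA4 against B16-GFP and in B16-IFNA9 against B16-IFNA4 stayed at 4 and 1 under every alternative run, including each tumor left out. In B16-IFNA9 against B16-GFP it was 3 or 4 under the other settings and 2 to 4 with 1 tumor left out. It was 2 without B16-GFP tumor 3, 6 or 8 and without B16-IFNA9 tumor 2, 3, 7 or 8, which each lost the calls of Il1rl1 and Gata3. No direction of a called member reversed. Of the members below the filter, 0 passed 0.05 in B16-IFNA4 against B16-GFP (0 to 1 with 1 tumor left out), 2 in B16-IFNA9 against B16-GFP (1 to 2, and 1 in the edgeR fit with no filter) and 1 in B16-IFNA9 against B16-IFNA4 (0 to 1, and 0 in the edgeR fit with no filter). The cause was not tested.

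The replicate block, which took tumors with the same number as pairs, left 4, 3 and 1 members called, and Il1rl1 in B16-IFNA9 against B16-GFP was then at an adjusted p of 0.0688. The numbers did not pair the tumors: the correlation of same-numbered tumors ran from -0.267 to 0.302 over the 3 comparisons, was over 0.1 in 2, 2 and 0 of 10 pairs, and 3 of 30 tumors correlated best with their own number. Counts limit what can be said of Il5 and Il13, which had at most 12 reads in a tumor, and the p-values measure only the spread between these tumors.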
